A study of Homo sapiens with 6 samples.

Results

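The ubiquitin-specific protease (USP) genes are the largest family of human deubiquitinase genes. They were taken as the protein-coding rows of the count table whose symbol is USP followed by a number and at most 1 letter, without USP18, without genes on the Y chromosome, and with a mean of at least 10 counts over the 6 libraries. Of 28491 genes in the count table, 49 rows matched the symbol, 47 remained after these exclusions and 44 passed the minimum. The 3 that did not pass were USP26, with at most 4 counts in any library, and USP6 and USP41, with at most 1. All 44 members were tested among 16260 genes in all, and the choice of members used no difference between the groups.

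The libraries came from HCT116, a human colorectal carcinoma cell line with epithelial origin, harvested 48 h after lipid-based plasmid transfection. The NC group (3 libraries) received a control plasmid, and the RBM47-OE group (3 libraries) received a plasmid that expressed RBM47, an RNA-binding protein that acts in splicing and mRNA stability. The sample labels name the RBM47 plasmid as a pcDNA3.1 vector with a 3xFlag tag, whereas the study's methods name a pIRES-hrGFP vector, so the backbone and tag are uncertain here. Every library came from a transfected culture, and no untransfected library was analysed here. Poly(A) RNA was sequenced, so the measurements are of USP transcripts and not of protein or of enzyme activity.

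Ubiquitin is a small protein that is joined to other proteins through lysine side chains, and chains of it mark proteins for the proteasome or change their place or partners. USP enzymes are cysteine proteases that cut ubiquitin off again. In colorectal cancer cells, members act on components of the Wnt pathway, on MYC, on replication and repair factors, on histones and on receptors in endosomes.

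Between 26792409 and 35477983 reads were counted on genes in each library. RBM47 was at 1.91, 2.33 and 1.94 FPKM (fragments scaled to gene length and to the mapped fragments of the library) in NC and at 131.3, 130.41 and 127.04 FPKM in RBM47-OE, a log2 fold change of 5.90 ± 0.10 (SE, n = 3 against 3, edgeR adjusted p = 1.69e-25). Of 8 epithelial markers, 7 passed the filter on low counts, and the FPKM sum of the 8 was 1964 to 2140 in NC and 1824 to 2068 in RBM47-OE, with CDH17 near 0 in each library. The immune, fibroblast and endothelial markers summed to 1.67 to 1.89 FPKM in NC and 1.41 to 1.85 FPKM in RBM47-OE, most of it from COL1A1, with CD3E and CDH5 at 0 in 5 of 6 libraries each. The labels do not say that replicates came from separate cultures, so p-values measure the spread between these libraries, which may be technical.

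A sequence that many of these genes share is the Cys box, which carries the catalytic cysteine. A Cys box of the common form was found in the coding sequence of 32 members, and 30 bases of it (10 codons, of which 5 precede the cysteine) are shown for members on which the results turn. The sequences are from GRCh38 on the coding strand, 5′ to 3′, and capitals mark the codon of the catalytic cysteine. USP37 (chr2:218498121-218498150, minus strand, Cys 350), USP34 (chr2:61265454-61265483, minus strand, Cys 1903), USP8 (chr15:50492807-50492836, plus strand, Cys 786) and USP33 (chr1:77734370-77734399, minus strand, Cys 163) had higher RNA in RBM47-OE. USP36 (chr17:78835350-78835379, minus strand, Cys 131), USP11 (chrX:47240838-47240867, plus strand, Cys 275), USP5 (chr12:6858547-6858576, plus strand, Cys 335) and USP22 (chr17:21018065-21018094, minus strand, Cys 185) had lower RNA.
USP37: aatttgggaaataccTGCtatatgaatgct
USP34: aaccttggagctactTGTtacttagcttct
USP8: aacttaggaaatactTGTtatatgaactca
USP33: aatattggaaatactTGTtacatgaatgca
USP36: aaccttggcaacaccTGCtttctcaatgcc
USP11: aatctgggcaacacgTGCttcatgaactcg
USP5: aacctgggtaacagcTGCtacctcaactct
USP22: aaccttgggaacacaTGCttcatgaactgc
These windows are shown because they hold the same catalytic cysteine in stretches of different base composition, and the residues around it also differ between members. Among the 11 members with a window and higher RNA in RBM47-OE, the median share of G or C at the third codon base was 40.0% (20.0% to 60.0%), and the cysteine was written TGT in 8 and TGC in 3. Among the 5 with lower RNA the median was 80.0% (70.0% to 90.0%), and all 5 used TGC. Among the 16 members with a window that did not pass the test the median was also 80.0% (10.0% to 100.0%), with TGC in 10 and TGT in 6, so the lower members did not stand apart from these. The windows are descriptions of base composition over 10 codons.

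In NC, USP transcripts spanned a wide range of levels per length. USP5, which takes apart free ubiquitin chains, was the highest at 53.3 ± 1.77 FPKM (SD, n = 3), followed by USP22, the histone deubiquitinase of the SAGA co-activator, at 42.9 ± 0.38 FPKM and USP39, a catalytically inactive member of the splicing machinery, at 29.6 ± 0.67 FPKM. USP10 was at 21.9 ± 0.60, USP19 at 18.8 ± 1.19, USP11 at 17.6 ± 0.42 and USP7 at 15.4 ± 0.42 FPKM. In that order USP19 and USP11 were little more than the SD of USP19 apart, whereas the steps from USP5 to USP22 and from USP22 to USP39 were many times the SD. The lowest member was USP50, at 0.083 ± 0.015 FPKM. The 3 highest genes held 35.5% of the summed USP level over the 6 libraries. The summed level of the 44 members was 326.6, 329.2 and 330.6 FPKM in NC and 328.5, 356.3 and 346.5 FPKM in RBM47-OE. In FPKM, RBM47-OE replicate 1 thus lay inside the NC range and replicates 2 and 3 above it. FPKM does not include the TMM scaling factors used for the counts, and a higher factor gives a lower scaled level. These were 0.9815, 0.9751 and 0.9797 in NC and 1.0021, 1.0515 and 1.0122 in RBM47-OE. The sums were not recomputed with them and are not read as a rise.

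**Figure D1:**
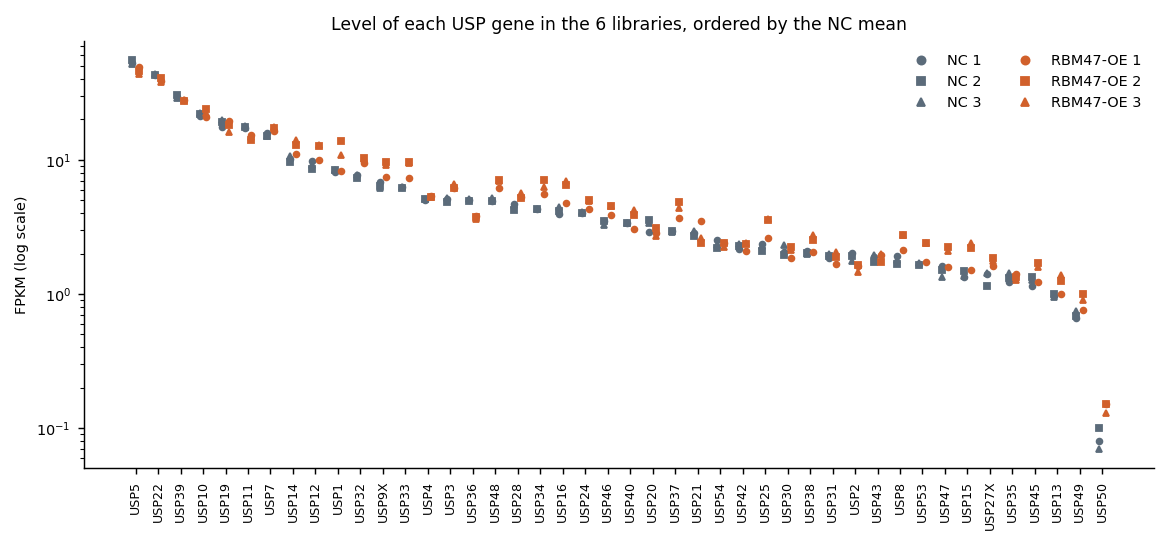
Level of each of the 44 USP genes in FPKM on a log axis, in the 3 NC libraries (grey) and the 3 RBM47-OE libraries (orange), with genes ordered by their NC mean. USP5, USP22 and USP39 stand at the top, at 53.3, 42.9 and 29.6 FPKM in NC, and USP50 at the bottom at 0.083 FPKM.

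With edgeR's quasi-likelihood test on the counts, 17 of 44 USP genes (38.6%) were higher in RBM47-OE at a Benjamini-Hochberg adjusted p under 0.05, beside 19.1% of all genes tested. In the other direction 5 members (11.4%) were lower, beside 16.9% of all genes. The remaining 22 did not pass, so 22 were called in either direction, beside 35.9% of all genes. The median log2 fold change over the members was 0.20, with a range of -0.51 to 0.68, and the median over all genes tested was 0.0. Scaling by library totals in place of TMM factors gave 23 higher and 3 lower members. The changes were small. At the study's thresholds (unadjusted p under 0.01 and fold change over 1.5) edgeR called 0 members and DESeq2 also 0, while 2.38% of all genes passed with edgeR. By contrast, 29 of the 44 had an unadjusted edgeR p under 0.05, beside 44.4% of all genes.

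Levels within a gene are given as CPM, the counts scaled to the library total with TMM factors. In 18 members the lowest RBM47-OE library exceeded the highest NC library, beside 23.2% of all genes, and in 6 members the highest RBM47-OE library was under the lowest NC library, beside 23.4%. In 20 members the groups overlapped. RBM47-OE replicate 1 stood nearer to NC than the other RBM47-OE libraries did. Over the 17 higher members, the median difference from the NC mean in log2 CPM was 0.16 in replicate 1, 0.50 in replicate 2 and 0.44 in replicate 3, while over the 5 lower members it was -0.24, -0.31 and -0.35. Without RBM47-OE replicate 1, 24 members were higher and 7 lower, and 3 (USP15, USP16 and USP25) passed the study's thresholds.

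**Figure D2:**
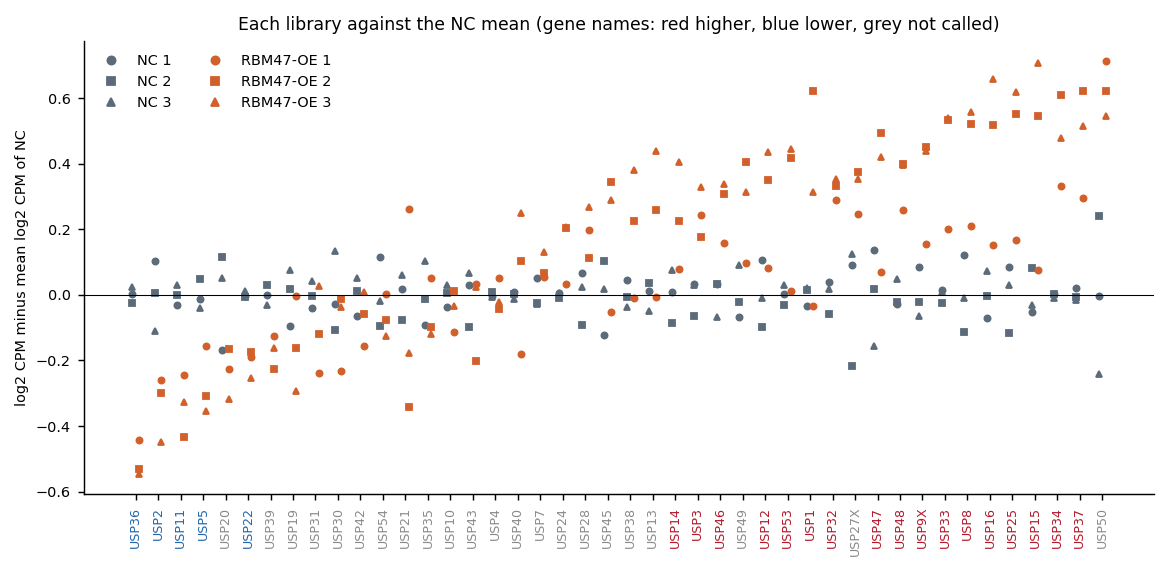
Difference of each library's log2 CPM from the NC mean of the same gene, for the 44 USP genes ordered by fold change, with NC libraries in grey and RBM47-OE libraries in orange. Over the 17 higher members (red names) RBM47-OE replicate 1 (circles) lies nearer 0, with a median of 0.16, than replicates 2 and 3, with 0.50 and 0.44.

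Among called members whose groups did not overlap, the largest rises were in enzymes that act on MYC, the cell cycle and Wnt, on histones and at endosomes. USP15 rose by a like amount (log2 0.46 ± 0.11 SE, edgeR adjusted p = 0.00187), but its groups overlapped. USP37, which opposes the ubiquitin ligase of the cell cycle and acts on MYC, was at 31.97, 31.33 and 31.18 CPM in NC and at 38.7, 48.54 and 45.0 CPM in RBM47-OE. All RBM47-OE libraries lay above NC, and the fold change was 1.40 (log2 0.49 ± 0.09 SE, edgeR adjusted p = 0.000211). USP34, a very large enzyme that acts on axin in the Wnt pathway, was at 92.1, 92.07 and 91.28 CPM in NC and at 115.7, 140.1 and 128.0 CPM in RBM47-OE. The NC libraries were nearly equal and the lowest RBM47-OE library stood well above them (fold change 1.39, log2 0.48 ± 0.07, adjusted p = 6.26e-05). USP37 shares 3045 exonic bases with VIL1 on the opposite strand, which had a mean of 12.67 counts, and USP34 shares 3263 with AHSA2P, with a mean of 167.0. Whether the counting used strand is not given in the sources used here, so reads from such partners cannot be told apart.

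USP25, which acts on tankyrases and is closely related to USP28, was at 21.69, 18.89 and 20.89 CPM in NC and at 22.97, 30.05 and 31.45 CPM in RBM47-OE (log2 0.46 ± 0.11, edgeR adjusted p = 0.00163). Its replicate 1 in RBM47-OE lay just above the highest NC library. USP16, which removes ubiquitin from histone H2A, was at 26.26, 27.54 and 29.06 CPM in NC and at 30.67, 39.6 and 43.59 CPM in RBM47-OE (log2 0.46 ± 0.10, adjusted p = 0.00123), again with replicate 1 closest to NC. USP9X, which protects MCL1 and other proteins from the proteasome, was at 113.0, 104.9 and 101.7 CPM in NC and at 118.5, 145.7 and 144.4 CPM in RBM47-OE (log2 0.35 ± 0.08, adjusted p = 0.00127). USP9X has a related copy on the Y chromosome, and whether any reads were shared between them was not tested. USP48, a nuclear enzyme that acts on H2A at BRCA1 sites, was at 54.15, 54.41 and 57.15 CPM in NC and at 66.09, 72.86 and 72.76 CPM in RBM47-OE (log2 0.35 ± 0.07, adjusted p = 0.000725). Here the gap between the groups was wider than the range within either.

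Of the members that act at membranes, USP8, which deubiquitinates receptors on endosomes together with STAM proteins, was at 46.51, 39.57 and 42.51 CPM in NC and at 49.49, 61.43 and 63.04 CPM in RBM47-OE (log2 0.44 ± 0.09, edgeR adjusted p = 0.000616). USP33, which acts on receptors during recycling, was at 50.43, 48.97 and 50.2 CPM in NC and at 57.31, 72.2 and 72.49 CPM in RBM47-OE (log2 0.43 ± 0.08, adjusted p = 0.000395). In both genes all RBM47-OE libraries lay above NC, with replicate 1 the lowest. USP8 shares 1366 exonic bases with USP50 on the opposite strand, and USP50, with a mean of 15.67 counts, had the largest log2 fold change of all members, 0.68 ± 0.40, which did not pass the test (adjusted p = 0.188).

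The largest fall was in USP36, a nucleolar enzyme that stabilises MYC and acts in ribosome production. It was at 54.0, 52.96 and 54.82 CPM in NC and at 39.7, 37.3 and 36.93 CPM in RBM47-OE. The groups were far apart, with a 1.42-fold lower level in RBM47-OE (log2 -0.51 ± 0.08, edgeR adjusted p = 4.86e-05), and this call was kept under all 18 other settings tried. USP11, a partner of BRCA2 in DNA repair, was at 101.6, 103.8 and 105.9 CPM in NC and at 87.58, 76.78 and 82.76 CPM in RBM47-OE (log2 -0.33 ± 0.07, adjusted p = 0.000952).

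USP5 was at 228.0, 237.9 and 223.8 CPM in NC and at 206.1, 185.4 and 179.9 CPM in RBM47-OE (log2 -0.27 ± 0.07, edgeR adjusted p = 0.00456), and without NC replicate 2 its adjusted p was 0.0510. USP22 was at 336.6, 335.9 and 340.1 CPM in NC and at 295.8, 299.4 and 283.0 CPM in RBM47-OE (log2 -0.21 ± 0.07, adjusted p = 0.0202). USP2, which acts on cyclin D1 and MDM2, was at 10.66, 9.951 and 9.177 CPM in NC and at 8.273, 8.033 and 7.242 CPM in RBM47-OE (log2 -0.34 ± 0.12, adjusted p = 0.0322). In these 3 genes no RBM47-OE library reached the NC range, but the calls of USP22 and USP2 were each lost in 4 of the 6 fits that left out 1 library: USP22 without NC replicate 1, 2 or 3 or RBM47-OE replicate 3 (log2 -0.21, -0.21, -0.20 and -0.18), and USP2 without NC replicate 1 or 2 or RBM47-OE replicate 2 or 3 (log2 -0.29, -0.34, -0.35 and -0.28). USP2 shares 1142 exonic bases with the antisense gene USP2-AS1, with a mean of 99.83 counts.

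Other members whose values are given whatever they did included both called and uncalled genes. USP1, which together with WDR48 deubiquitinates FANCD2 and PCNA, was at 36.27, 37.52 and 37.72 CPM in NC and at 36.33, 57.23 and 46.18 CPM in RBM47-OE (log2 0.33 ± 0.11, edgeR adjusted p = 0.0193). The groups overlapped, since RBM47-OE replicate 1 lay at the lowest NC library, and the value without replicate 2 was 0.15 (adjusted p = 0.284). USP1 also missed the threshold without NC replicate 1 (log2 0.31, adjusted p = 0.0634) or NC replicate 2 (log2 0.33, adjusted p = 0.0533). USP14, the deubiquitinase bound to the proteasome, was at 71.09, 66.56 and 74.39 CPM in NC and at 74.55, 82.54 and 93.66 CPM in RBM47-OE (log2 0.24 ± 0.08, adjusted p = 0.0208), and without RBM47-OE replicate 3 it was 0.15 (adjusted p = 0.151). With an offset that took a smooth curve of exonic GC content out of each library (the GC offset, described with the base composition of the genes), USP14 turned to -0.06 (adjusted p = 0.587) and USP1 was at 0.02 (adjusted p = 0.889). USP14 also missed the threshold without NC replicate 1 (log2 0.25, adjusted p = 0.0654) or NC replicate 2 (log2 0.20, adjusted p = 0.142). Both calls were thus lost in 3 of the 6 fits that left out 1 library.

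Several well-studied members did not pass. USP7, which acts on MDM2, was at 159.3, 151.1 and 150.9 CPM in NC and at 159.6, 161.1 and 168.3 CPM in RBM47-OE (log2 0.08 ± 0.07, edgeR adjusted p = 0.361), so its groups were separated by less than 1 CPM. USP10, a partner of the stress granule protein G3BP1, was at 125.5, 129.3 and 131.5 CPM in NC and at 118.9, 129.9 and 125.8 CPM in RBM47-OE (log2 -0.04 ± 0.07, adjusted p = 0.660), with overlapping groups. USP28, which acts on MYC, was at 31.13, 27.88 and 30.21 CPM in NC and at 34.12, 32.16 and 35.83 CPM in RBM47-OE (log2 0.20 ± 0.09, adjusted p = 0.0747). USP39 was at 136.0, 138.9 and 133.0 CPM in NC and at 124.7, 116.3 and 121.6 CPM in RBM47-OE (log2 -0.17 ± 0.07, adjusted p = 0.0543). In the last pair the groups did not overlap, and both passed without RBM47-OE replicate 1, at 0.20 (adjusted p = 0.0490) for USP28 and -0.19 (adjusted p = 0.0119) for USP39. Each passed in 4 of the 18 other settings. These included DESeq2 on the filtered genes for USP39 (adjusted p = 0.0414) and edgeR with library totals for USP28 (adjusted p = 0.0234). With the GC offset neither passed, at 0.02 (edgeR adjusted p = 0.909) for USP28 and -0.09 (adjusted p = 0.306) for USP39.

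The counts by role are set beside 19.1% higher and 16.9% lower over all genes tested, and the lists are too short for their shares to be read as results. The 10 members that act on MYC, the cell cycle, Wnt or transcription factors held 6 higher (USP37, USP34, USP15, USP25, USP9X and USP47), 2 lower (USP36 and USP2) and 2 uncalled genes (USP28 and USP10), with a median log2 fold change of 0.35. Enzymes named for MYC were thus on both sides, with USP37 higher and USP36 lower. The 8 tested histone deubiquitinases held 2 higher (USP16 and USP3), 2 lower (USP11 and USP22) and 4 uncalled (USP27X, USP49, USP7 and USP21), and their median was 0.17. Shares of 2 in 8 in each direction lay near those of all genes. All 3 enzymes that work with WDR48 (USP1, USP12 and USP46) were higher, at log2 0.33, 0.29 and 0.27, and in USP1 and USP12 the groups overlapped. With the GC offset none of the 3 was called, at 0.02 for USP1, -0.06 for USP12 and 0.02 for USP46. Of the 3 that act on free chains or at the proteasome, USP5 was lower, USP14 was higher and USP13 did not pass (log2 0.24, edgeR adjusted p = 0.0796). USP13 shares 2462 exonic bases with another gene on the same strand, which had a mean of 481.2 counts. USP49 shares 5470 with such a gene, with a mean of 240.5. Reads there cannot be told apart even by strand. At membranes 3 of 6 were higher (USP8, USP33 and USP32), and USP19, USP20 and USP30 did not pass. Of the members linked to splicing, USP15 was higher (log2 0.46), and USP39 and USP4 (log2 -0.00) did not pass. The 12 members in none of these lists held 2 higher genes, USP48 and USP53, and 10 uncalled. The roles overlap in USP15, which is in 2 of them.

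The other deubiquitinases named here are a list of 38 genes. The list also held USPL1 and PAN2, which are not deubiquitinases of another family. Beside the USP genes, 34 of the 38 could be tested. Their median log2 fold change was 0.23, against 0.20 for the USP genes, and 17 of the 34 passed as higher, beside 19.1% of all genes, and 5 as lower (14.7%, beside 16.9%). The higher ones included the proteasome subunits PSMD14 (log2 0.37 ± 0.08, edgeR adjusted p = 0.00108) and UCHL5 (0.53 ± 0.09, adjusted p = 0.000119) and the BRCA1 complex subunit BRCC3 (0.63 ± 0.11, adjusted p = 0.000171), and the lower ones included BAP1 (-0.22 ± 0.07, adjusted p = 0.0187) and OTUB1 (-0.32 ± 0.07, adjusted p = 0.00170). With the GC offset 2 were higher and 1 lower, beside 6.0% and 8.47% of all genes. USPL1 was among the higher genes both without the offset (0.54) and with it (0.37, adjusted p = 0.0178). BRCC3 kept its call (0.36, adjusted p = 0.0105), whereas PSMD14 (0.01), UCHL5 (0.18), BAP1 (-0.03) and OTUB1 (-0.13) lost theirs. Among 10 proteins that bind USP enzymes, 4 (40.0%, beside 19.1% of all genes) were higher, namely WDR48 (0.43 ± 0.09, adjusted p = 0.000948), STAM2 (0.53 ± 0.10, adjusted p = 0.000371), STAM (0.24) and GMPS (0.20). The tri-snRNP factor SART3 (-0.23) and the SAGA subunit ATXN7L3 (-0.20) were lower (20.0%, beside 16.9%). The other subunits of the SAGA module did not pass, with ENY2 at 0.01 (adjusted p = 0.954) and ATXN7 at 0.13 (adjusted p = 0.264). With the GC offset all 4 higher calls among the partners were lost, with WDR48 at 0.15 (adjusted p = 0.175), and 2 were lower, SART3 at -0.25 (adjusted p = 0.00463) and ENY2 at -0.31 (adjusted p = 0.00493). ATXN7L3 was then at -0.00 (adjusted p = 0.979).

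Of 13 genes for proteins on which USP enzymes act, 6 were higher (46.2%, beside 19.1% of all genes) and 3 lower (23.1%, beside 16.9%). With the GC offset 2 were higher and 2 lower, beside 6.0% and 8.47% of all genes. The Fanconi anaemia proteins FANCD2 and FANCI, targets of USP1, were at log2 0.31 ± 0.08 (edgeR adjusted p = 0.00416) and 0.42 ± 0.08 (adjusted p = 0.000251), and MDM4, TNKS, TNKS2 and MCL1 were at 0.35, 0.36, 0.38 and 0.25. The lower genes included MYC, at -0.22 (adjusted p = 0.0235), and PCNA, at -0.20 (adjusted p = 0.0399). With the GC offset FANCI (0.19, adjusted p = 0.0244), MCL1 (0.16, adjusted p = 0.0494) and PCNA (-0.30, adjusted p = 0.00473) passed. FANCD2 (0.14, adjusted p = 0.15), MDM4 (0.12), TNKS (0.12), TNKS2 (0.13) and MYC (-0.11, adjusted p = 0.27) then did not pass. Of the genes that encode ubiquitin itself, UBB was lower at -0.30 (adjusted p = 0.00279), and RPS27A (0.07, adjusted p = 0.503) did not pass. The activating enzyme UBA1 was lower (-0.32, adjusted p = 0.00230) and its relative UBA6 higher (0.37, adjusted p = 0.000979). With the GC offset UBB (-0.18, adjusted p = 0.0512), UBA1 (-0.17, adjusted p = 0.0640) and UBA6 (0.00, adjusted p = 0.978) did not pass.

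The fold changes of the USP genes were ordered by their base composition. Across the 44 genes, Spearman's correlation between the log2 fold change and the GC content of the exons was -0.809, a description across genes that share the same 6 libraries, and across 16229 genes tested with a GC value it was -0.635. The exonic GC content had a median of 39.6% (36.04% to 43.73%) in the 17 higher members and of 56.51% (54.35% to 58.28%) in the 5 lower members, so these did not overlap. Over all 44 members the median was 43.62%, below the 48.98% of all genes tested. The same coefficient was -0.746 with the third codon base of the coding sequence, -0.621 with the 3′ UTR and 0.383 with exonic length. The relation was present in each RBM47-OE library, at -0.467 in replicate 1, -0.842 in replicate 2 and -0.880 in replicate 3 for the difference from the NC mean, and was -0.199, 0.084 and 0.263 in the NC libraries.

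The same gradient held for genes at large. When genes were placed in 10 bins of GC content, the lowest bin (up to 38.94%) had a median of 0.38 on the log2 scale over its 1623 genes with 64.9% higher, and 7 of 9 USP genes there were higher. In the next bin (up to 41.39%), the median was 0.31 with 51.4% higher, and 8 of 9 USP genes were higher. From 55.12% to 58.17%, 32.2% of all genes and 3 of 4 USP genes (USP36, USP11 and USP5) were lower. Other bins held a smaller share of called members than of all genes, with medians that lay near each other. From 58.18% to 61.58%, 36.2% of all genes and 1 of 4 USP genes (USP2) were lower, with medians of -0.22 and -0.20. From 41.39% to 43.66%, 36.8% of all genes and 1 of 4 USP genes (USP3) were higher, with medians of 0.2205 and 0.2184. All RBM47-OE libraries carried the gradient, so the group and a GC-dependent difference between libraries cannot be told apart for the USP genes that lie along it.

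**Figure D3:**
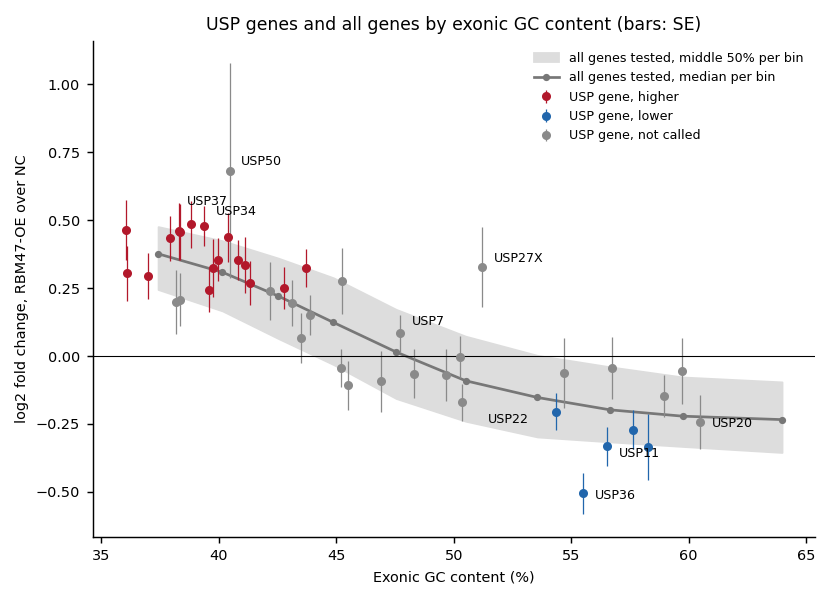
Log2 fold change of the 44 USP genes (points, bars are SE) against exonic GC content in percent, with the median (line) and middle 50% (grey band) of all genes tested in 10 bins of GC content. The higher genes (red) lie between 36.04% and 43.73% GC along the falling line of all genes and the lower genes (blue) between 54.35% and 58.28%, with USP36 below the band and USP27X above it.

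When a smooth curve of exonic GC content was removed from each library as an offset, 3 USP genes were higher and 1 lower, beside 6.0% and 8.47% of all genes. The median over the members was 0.02 with the offset, and the correlation with GC content was -0.190. USP36 stayed lower at log2 -0.34 ± 0.06 (edgeR adjusted p = 0.000710), and in the 6 fits with the offset that each left out 1 library it was called throughout, at -0.36 to -0.33. USP34 at 0.17 ± 0.06 (adjusted p = 0.0398) and USP32, a Golgi-associated enzyme, at 0.17 ± 0.05 (adjusted p = 0.0401) stayed just past the threshold, and each was called in 2 of those 6 fits.

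USP32 was at 85.7, 80.13 and 84.47 CPM in NC and at 101.9, 105.1 and 106.5 CPM in RBM47-OE (log2 0.33 ± 0.07 without the offset, edgeR adjusted p = 0.000887). In this gene RBM47-OE replicate 1 lay with the other two. USP27X, a single-exon relative of USP22 on the X chromosome (chrX:49879484-49882558, plus strand), was at 5.023, 4.05 and 5.145 CPM in NC and at 5.606, 6.134 and 6.035 CPM in RBM47-OE. It did not pass without the offset (log2 0.33 ± 0.15, adjusted p = 0.0859) and passed with it (0.43 ± 0.14, adjusted p = 0.0455), in 1 of the 6 fits that left out a library. USP27X, USP32 and the offset values of USP34 and USP36 were described after their values were seen. The other 15 higher and 4 lower members did not pass with the offset, and their values there were -0.06 to 0.17 and -0.16 to -0.05.

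**Figure D4:**
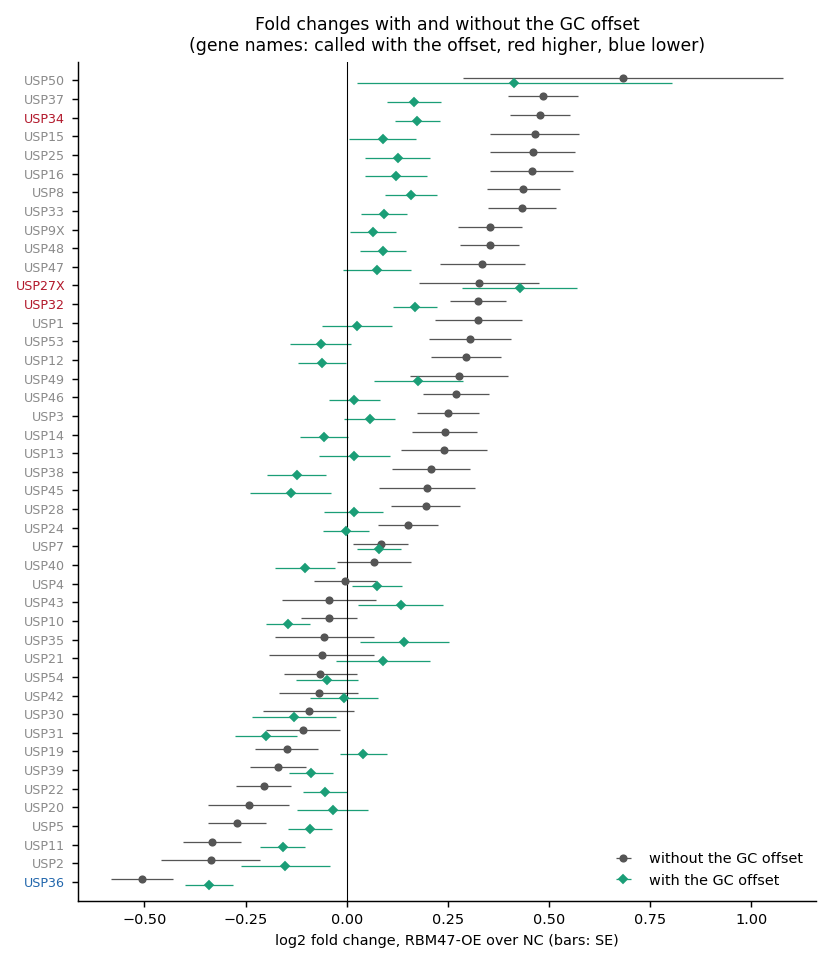
Log2 fold change (points, bars are SE) of each of the 44 USP genes without the GC offset (grey) and with it (green). The median over the genes goes from 0.20 to 0.02, while some genes, such as USP27X and USP10, move away from 0, and 4 genes are called with the offset, USP34, USP32 and USP27X higher (red names) and USP36 lower (blue name).

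Related members could be set against each other within each library, as the log2 ratio of their CPM. Of 14 pairs, 8 had ratios that did not overlap between the groups, beside 46.5% of single genes tested. No such share was computed for ratios of other genes, and some pairs share a gene, so this count is not read as a result. An exact two-sided permutation test of 3 against 3 cannot give a p below 0.1, so none could pass. USP11 and USP15, which arose from a common ancestor, were at log2 ratios of 1.74, 1.64 and 1.78 in NC and 1.40, 0.74 and 0.69 in RBM47-OE, a change of -0.78 (exact p = 0.1), and the difference between their fold changes was -0.25 with the GC offset. Their exonic GC contents were 56.51% and 36.04%. USP20 relative to USP33, both of which recycle receptors, changed by -0.66 (exact p = 0.1) and by -0.13 with the offset, with GC contents of 60.5% and 37.92%. USP5 relative to USP13, which both recognise ubiquitin chains, changed by -0.51 (exact p = 0.1) and by -0.11 with the offset, with GC contents of 57.61% and 42.19%. Reads of USP13 may be shared with the gene that overlaps it on the same strand, which was not tested.

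Other pairs lay closer to each other in GC content. USP12 and USP46 (36.99% and 41.32%) kept their ratio, at 0.63 ± 0.12 in NC and 0.65 ± 0.09 in RBM47-OE (SD, n = 3, exact permutation p = 0.7). USP16 relative to USP45 (38.34% and 38.16%) rose from 1.24 ± 0.09 to 1.49 ± 0.11, a change of 0.25 (exact p = 0.1), and with the GC offset the difference between their fold changes was 0.26. USP22 relative to USP27X (54.35% and 51.22%) was at 6.07, 6.37 and 6.05 in NC and at 5.72, 5.61 and 5.55 in RBM47-OE, a change of -0.54 (exact p = 0.1) and a difference of -0.48 with the offset. USP36 relative to USP42 (55.51% and 49.68%) was at 1.60, 1.50 and 1.51 in NC and at 1.25, 1.06 and 0.98 in RBM47-OE, a change of -0.44 (exact p = 0.1) and of -0.33 with the offset. In these last 3 pairs no RBM47-OE library reached the NC range.

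**Figure D5:**
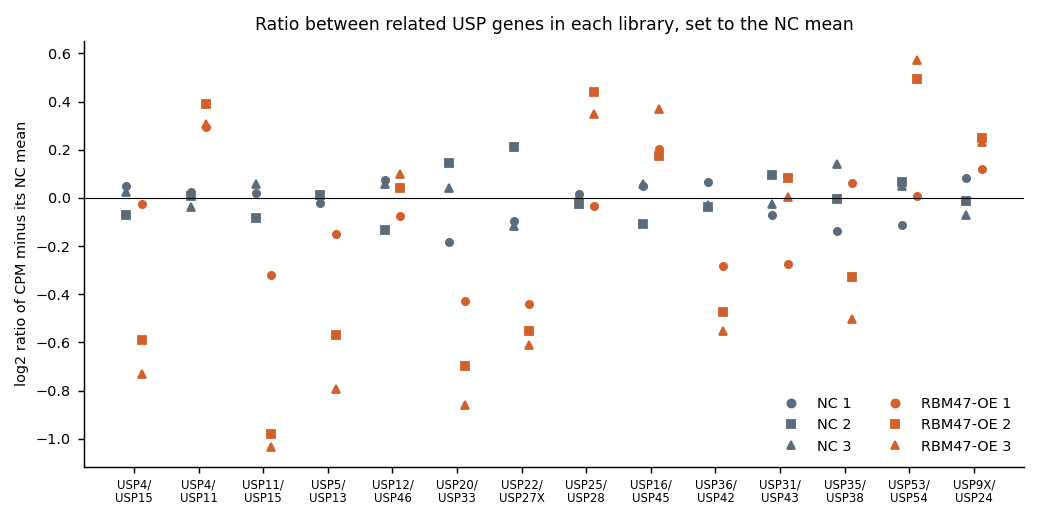
Log2 ratio of the CPM of 14 pairs of related USP genes in each library, set to 0 at the NC mean of the pair, with NC libraries in grey and RBM47-OE libraries in orange. USP11 relative to USP15 moved by -0.78 on average and USP12 relative to USP46 by 0.02.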

How the data were processed

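The authors trimmed reads with FASTX-Toolkit, used HISAT2 for alignment to GRCh38 and took the uniquely mapped reads of each gene. The deposited counts are not normalized. The authors also deposited FPKM values, which are scaled to gene length and mapped fragments. The counting tool, annotation release and use of strand are not given in the sources used here. Counts were tested with edgeR 4.0.16 in R 4.3.3 (filterByExpr with minimum count 10 and minimum total 15, TMM factors, quasi-likelihood test, Benjamini-Hochberg adjustment over 16260 genes). The SE is the absolute log2 fold change over the square root of F. Log2 CPM used a prior count of 2. Exonic GC content and coordinates came from GENCODE release 44 on GRCh38, and the offset was a loess curve (span 0.3) per library. Exact permutation tests used scipy 1.17.1. DESeq2 1.42.0 and limma 3.58.1 were alternatives, the latter on log2 FPKM with 1 or 0.1 added where the mean FPKM reached 0.1. The fits were tested on simulated data in which 200 genes changed by 1 on the log2 scale, in either direction. Without a simulated GC trend edgeR made 10 false calls. With such a trend the same fit made 2757 and DESeq2 made 2535, while edgeR with the GC offset made 9. The simulated trend was a straight line that was not fitted to these data. It was a function of the same exonic GC content that the offset takes out, and equal in each simulated RBM47-OE library. Its removal was thus fixed in advance and does not show how the offset acts on these data. Changes as small as those of the called members were not simulated.

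The members, role lists and tests were chosen with earlier results of these data known. Values per library were given for the 8 members with the largest called change in each direction (mean log2 CPM of at least 0, groups not overlapping), for USP1, USP5, USP7, USP10, USP14, USP22, USP28 and USP39, and for the 3 with the highest FPKM. Labels and methods also differ on the culture medium and the library kit. Some genes of the lists are not reported here.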

Additional observations from a re-analysis of the deposited data

How the results depend on the processing

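The 17 higher USP genes were all called with DESeq2, with RLE factors, with library totals, without a filter and with the replicate block, and 5, 5, 3, 4 and 4 of the 5 lower genes were. DESeq2 on all genes kept 4 of them. Fewer higher calls were kept elsewhere, with 13 of the 17 called under the length offset and 13 in each limma fit on log2 FPKM. The length offset kept all 5 lower calls, and each limma fit kept 3. A minimum of 10 counts in every library left out USP50 and kept the 22 calls. The median over all genes moved by 0.06 with library totals. Library totals gave 3 lower members and 2 lower other deubiquitinases, no filter gave 3 of the latter, and limma on log2(FPKM + 1) and on log2(FPKM + 0.1) gave 3 lower members and 2 lower other deubiquitinases each. The length offset gave 1 member at the study's thresholds (USP36), with 10 higher and 3 lower other deubiquitinases. The GC offset gave 3 higher and 1 lower members, a median of 0.0221, and 2 higher and 1 lower other deubiquitinases. With the replicate block added to it, these were 1 and 1, 0.0181, and 2 and 1, with USP27X and USP36 as the called members. The cause of these changes was not tested.

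Same-numbered libraries did not deviate together (r of -0.06, -0.01 and -0.02 between their deviations from the group means). These values do not settle whether the samples were handled in pairs. The replicate block left 17 higher and 4 lower members, without USP22, and 3 lower other deubiquitinases.

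Leaving out 1 library at a time gave 12 to 24 higher members, 2 to 7 lower members, 0 to 3 at the study's thresholds, a median of 0.14 to 0.29, 11 to 20 higher and 1 to 5 lower other deubiquitinases, and 5.85 to 5.998 for RBM47. The fewest calls of members came without NC replicate 2 and the most without RBM47-OE replicate 1. Without RBM47-OE replicate 3, 3 members were lower, and 2 without NC replicate 2. Lower other deubiquitinases numbered 2, 2 and 1 when NC replicates 1, 2 and 3 were left out and 2 and 3 when RBM47-OE replicates 2 and 3 were, and 11 were higher without NC replicate 2. Members at the study's thresholds numbered 3 without RBM47-OE replicate 1.

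Some values changed sign, among them USP14 and USP1, which were called higher without the GC offset. USP10 was at 0.0189 with library totals and at 0.0256 and 0.0266 with limma at pseudocounts of 1 and 0.1, and USP7 at -0.024 with the length offset. USP14 was at -0.0569 with the GC offset and at -0.0573 with the replicate block added. Fits with the GC offset that each left out 1 library were added after seeing the data. In these USP14 was at -0.0636, -0.0890 and -0.0160 without NC replicates 1, 2 and 3 and at -0.0462, -0.0252 and -0.1033 without RBM47-OE replicates 1, 2 and 3. USP1 was at -0.0033 when NC replicate 1 was left out and at -0.1245 when RBM47-OE replicate 2 was. USP28 was at -0.0198 and -0.021 when NC replicate 2 or RBM47-OE replicate 1 was left out. Depth limited USP50, at 0.083 FPKM in NC, and the 3 USP genes under the minimum.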
